A study of Homo sapiens with 20 samples.

Results

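The genes described are 36 listed genes of glycolysis and the response to low oxygen, chosen by symbol from the array annotation, with the single-symbol probe set of the highest mean over all arrays standing for each gene. Of these, 33 were measured among 11963 genes in all, and CA9, SLC16A1 and SLC16A3 were not analysed here. RNA came from SUM44, an estrogen receptor-positive cell line of a human invasive lobular breast carcinoma, and was read on 20 Affymetrix arrays of 5 groups with 4 arrays each. Hormone was first withdrawn from all cells for 3 days with charcoal-stripped serum, for which the series and sample texts give different percentages. One group then received 1 nM estradiol (E2) for 3 h and was compared with ethanol vehicle for 3 h. Another received 1 nM E2 for 24 h and was compared with vehicle for 24 h, and both vehicle groups were compared with cells taken at 0 h without any addition. For the 24 h E2 arrays the treatment entry says baseline, against both title and description, and the title was followed. The submitters call the 4 arrays of a group biological replicates, here lettered A to D. The material is 1 cultured line, and no oxygen level is given in the labels.

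Glycolysis splits glucose into pyruvate. Glucose enters through transporters such as GLUT1 (SLC2A1), hexokinases trap it, phosphofructokinase commits it, and the lower enzymes from triose phosphate isomerase to pyruvate kinase recover ATP. The HIF alpha subunits (HIF1A, and EPAS1, also called HIF-2 alpha) are marked for destruction by prolyl hydroxylases (EGLN1, EGLN3) when oxygen is present. When they escape, they bind a short DNA core and switch on glucose transporters, most glycolytic enzymes, LDHA, PDK1, VEGFA and the hydroxylase EGLN3 itself. Many tumours run glycolysis at a high rate even with oxygen at hand.

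Values are log2 expression of a probe set, so a difference of 1 is a doubling, and levels of different probe sets are not comparable. Differences are given with the standard error of a limma fit over all 20 arrays, and a gene is called where the Benjamini-Hochberg adjusted p over all genes lies under 0.05. A level of 6.11, below which the lowest 25% of genes lie, is called dim. Of the 33 measured genes, 21 lay among the brightest 25% of genes, and LDHB alone lay among the dim ones. Arrays correlated at 0.998 to 0.999 within groups and at 0.988 to 0.998 between groups. All 6 checked estrogen target genes rose with E2 at both times. All 10 luminal epithelial markers were above the dim level, with ESR1 at 13.36 and KRT18 at 13.91, and 6 of 6 measured basal, 6 of 10 stromal and 7 of 9 measured immune or endothelial markers were dim.

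RefSeq promoter windows (GRCh38.p14, 250 bases before to 50 after a gene start) were matched for 32 of the 36 listed genes, with 59 windows in all, and none was matched for VEGFA, NDRG1, BNIP3L or SLC16A1. The core bound by HIF, ACGTG or GCGTG on either strand, stood in 39 of the 59 windows (66.1%) and in 17012 of 35116 windows of all genes (48.4%). The palindrome CACGTG, which holds that core on both strands and counts as 1 site, stood in 7 windows (11.9%), against 7.26% of all. The full estrogen response element, GGTCA and TGACC with 3 bases of any kind between them, which reads alike on both strands, was in 0 of the 59 windows and in 0.057% of all windows. The 5 windows printed belong to genes that moved in different ways: PFKFB3 (chr10:6202682-6202981, plus strand) and ALDOC (chr17:28576846-28577145, minus strand), higher with E2 at 24 h, and LDHA (chr11:18394313-18394612, plus strand), BNIP3 (chr10:131981874-131982173, minus strand) and EGLN3 (chr14:33951025-33951324, minus strand), lower with E2 at 24 h. Of the windows of a gene, the one with most cores is printed, or on a tie the one with CACGTG. Each runs 5′ to 3′ on the strand of its gene, and capitals mark the core.
PFKFB3: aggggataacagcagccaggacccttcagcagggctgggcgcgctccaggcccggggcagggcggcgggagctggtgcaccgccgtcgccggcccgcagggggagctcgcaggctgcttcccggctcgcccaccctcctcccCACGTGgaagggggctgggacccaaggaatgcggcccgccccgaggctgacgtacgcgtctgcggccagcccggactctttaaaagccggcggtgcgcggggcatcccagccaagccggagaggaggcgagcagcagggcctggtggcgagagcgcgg
ALDOC: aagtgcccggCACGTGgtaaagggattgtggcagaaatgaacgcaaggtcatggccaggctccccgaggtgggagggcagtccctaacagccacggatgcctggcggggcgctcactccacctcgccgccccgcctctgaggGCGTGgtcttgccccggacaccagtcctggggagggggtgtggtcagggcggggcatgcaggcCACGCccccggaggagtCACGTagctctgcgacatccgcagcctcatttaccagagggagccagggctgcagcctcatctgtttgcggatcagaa
LDHA: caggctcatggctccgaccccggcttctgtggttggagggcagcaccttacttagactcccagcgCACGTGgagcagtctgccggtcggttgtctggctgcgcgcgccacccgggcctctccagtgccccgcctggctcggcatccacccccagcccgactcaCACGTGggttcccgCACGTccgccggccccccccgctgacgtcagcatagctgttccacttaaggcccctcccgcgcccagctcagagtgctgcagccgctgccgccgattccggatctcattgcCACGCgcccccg
BNIP3: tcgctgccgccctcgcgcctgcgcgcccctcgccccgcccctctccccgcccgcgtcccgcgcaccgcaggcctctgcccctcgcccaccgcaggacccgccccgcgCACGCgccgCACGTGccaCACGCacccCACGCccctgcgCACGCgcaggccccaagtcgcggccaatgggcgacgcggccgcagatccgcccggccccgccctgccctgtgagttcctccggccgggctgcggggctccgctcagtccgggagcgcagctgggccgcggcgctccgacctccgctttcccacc
EGLN3: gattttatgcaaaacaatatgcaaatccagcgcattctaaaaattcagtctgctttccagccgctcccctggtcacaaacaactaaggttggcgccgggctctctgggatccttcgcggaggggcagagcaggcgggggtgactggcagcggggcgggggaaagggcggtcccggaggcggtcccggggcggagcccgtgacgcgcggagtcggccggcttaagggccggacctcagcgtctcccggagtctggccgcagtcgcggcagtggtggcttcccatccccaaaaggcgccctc
PFKFB3 holds 1 site, ALDOC 4, LDHA 4, BNIP3 5 and EGLN3 none. The genes were picked by hand from both directions, and the window with most cores was taken. These counts therefore cannot relate sites to the E2 response. A match is only a run of letters, and binding was not measured.

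After 3 h of E2, PFKFB3, the angiogenic factor VEGFA and the glucose transporter gene SLC2A1 rose most and the hydroxylase genes EGLN3 and EGLN1 fell, while most enzymes of the pathway had not passed the test. Of the 33 genes 8 were higher (24.2%, with 13.5% of all genes called higher) and 5 were lower (15.2%, with 17.6% of all genes called lower). Among the 21 of them in the brightest 25% of genes, 7 were higher (19.5% of the genes in that range) and 1 was lower (24.9%). All 4 E2 arrays lay above all 4 vehicle arrays for 8 of the 33 (13.4% of all genes) and below them for 8 (17.2%). Fewer cells of a kind and less RNA per cell cannot be told apart in such bulk RNA. The median difference was 0.02 over these genes and 0.00 over all genes. At least a 1.5-fold change was called higher for PFKFB3, VEGFA and SLC2A1 (2.73% of all genes) and lower for EGLN3 (2.58% of all genes).

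PFKFB3 makes fructose 2,6-bisphosphate, the strongest activator of phosphofructokinase. Its log2 level was 11.64, 11.51, 11.41 and 11.44 on the 3 h E2 arrays, against 9.57, 9.76, 9.56 and 9.59 on the 3 h vehicle arrays. The groups lay far apart, and E2 was higher by 1.88 ± 0.05, or 3.68-fold (limma adjusted p = 5.8e-16). This was the largest rise among the 33 genes. Its relative PFKFB4 differed by -0.03 and was not called (limma adjusted p = 0.74).

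SLC2A1 encodes the basal glucose transporter GLUT1. Its log2 level was 9.53, 9.60, 9.53 and 9.58 with 3 h E2, against 8.48, 8.53, 8.44 and 8.45 with 3 h vehicle. Every E2 array exceeded every vehicle array, a 2.12-fold difference (1.08 ± 0.04, limma adjusted p = 8.3e-15), and both of its 2 probe sets were called higher.

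VEGFA, the growth factor that calls in blood vessels, read 11.97, 11.79, 11.89 and 11.88 on the 3 h E2 arrays. The 3 h vehicle arrays gave 10.72, 10.80, 10.70 and 10.71, with no overlap. The rise was 2.22-fold (1.15 ± 0.04, limma adjusted p = 1.9e-15), and all 4 VEGFA probe sets were called higher at both times.

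EGLN3, a prolyl hydroxylase that marks HIF alpha for destruction and is itself a HIF target, read 5.82, 5.44, 6.09 and 5.94 with 3 h E2. With 3 h vehicle it read 7.78, 7.94, 7.73 and 7.88. All 4 E2 arrays lay in the dim range, so the 4.03-fold lower level (-2.01 ± 0.09, limma adjusted p = 1.3e-12) rests on a signal near background. The related EGLN1 fell too, to 8.78, 8.68, 8.64 and 8.78 with 3 h E2, against 9.16, 9.21, 9.26 and 9.29 with 3 h vehicle. The difference was -0.51 ± 0.05 (limma adjusted p = 1.1e-07).

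The HIF alpha subunits went the other way at 3 h. EPAS1 read 11.78, 11.79, 11.85 and 11.76 with E2, against 11.26, 11.40, 11.32 and 11.39 with vehicle, a 1.37-fold rise (0.45 ± 0.04, limma adjusted p = 9.5e-09). HIF1A read 12.76, 12.70, 12.74 and 12.69 with E2, against 12.45, 12.46, 12.48 and 12.38 with vehicle, a 1.21-fold rise (0.28 ± 0.03, limma adjusted p = 1.4e-07). In both genes every E2 array exceeded every vehicle array. These are RNA levels, and HIF is regulated mainly through its protein, which was not measured.

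Among the upper glycolytic enzymes at 3 h, HK1, a hexokinase, rose 1.32-fold (0.40 ± 0.03, limma adjusted p = 1.7e-10), and PFKP, the platelet-type phosphofructokinase, fell by 0.31 ± 0.08 on the log2 scale (limma adjusted p = 0.0047). PFKP had also moved in vehicle, as described later. HK2, the inducible hexokinase, differed by 0.05 (limma adjusted p = 0.44), while its second probe set gave -0.24 (adjusted p = 0.016), so its direction at 3 h depends on the probe set. GPI, PFKL, PFKM, ALDOA and ALDOC differed by at most 0.13 and were not called.

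Among the 7 lower glycolytic enzymes at 3 h, PGAM1, a phosphoglycerate mutase, was higher (0.17 ± 0.03, limma adjusted p = 0.00074) and ENO2, the neuronal enolase, was lower (-0.24 ± 0.06, adjusted p = 0.0056). The 3 h E2 arrays of ENO2 (6.62 to 6.93) overlapped its 0 h arrays (6.73 to 6.89). Every 3 h vehicle array of ENO2 (6.94 to 7.10) lay above every 0 h array. That vehicle difference was not called (0.18 ± 0.06, limma adjusted p = 0.056). It was called with each array centred on its median (adjusted p = 0.038). TPI1, GAPDH, PGK1, ENO1 and PKM lay between -0.08 and 0.02 and were not called. The third probe set of TPI1 was called lower (-0.14, adjusted p = 0.015). Of the 4 genes of pyruvate fate, the lactate dehydrogenases LDHA and LDHB and the pyruvate dehydrogenase kinases PDK1 and PDK3, none was called by limma at 3 h, and at an unadjusted p under 0.05, 0 of 4 were higher and 1 was lower. PDK3 differed by -0.09 (adjusted p = 0.13), but its second probe set was called lower (-0.26, adjusted p = 0.0027), as was the mean of its probe sets (-0.12, adjusted p = 0.025). It was also called at -0.13 (adjusted p = 0.019) without 3 h vehicle array B and at -0.12 (adjusted p = 0.049) without 3 h E2 array A.

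Of the remaining hypoxia targets at 3 h, P4HA2, a collagen prolyl hydroxylase subunit, rose (0.29 ± 0.03, limma adjusted p = 2.5e-07). NDRG1, a stress-responsive growth inhibitor, fell slightly (-0.15 ± 0.03, adjusted p = 0.0015). BNIP3, a mitophagy receptor, missed the threshold (-0.07 ± 0.03, adjusted p = 0.051). It was called, at the same size, with the mean of its probe sets (adjusted p = 0.023) and without the dimmest 25% of genes (adjusted p = 0.033). The vasodilator peptide gene ADM, the mitophagy receptor gene BNIP3L and P4HA1 were not called, with values from -0.01 to 0.06.

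**Figure D1:**
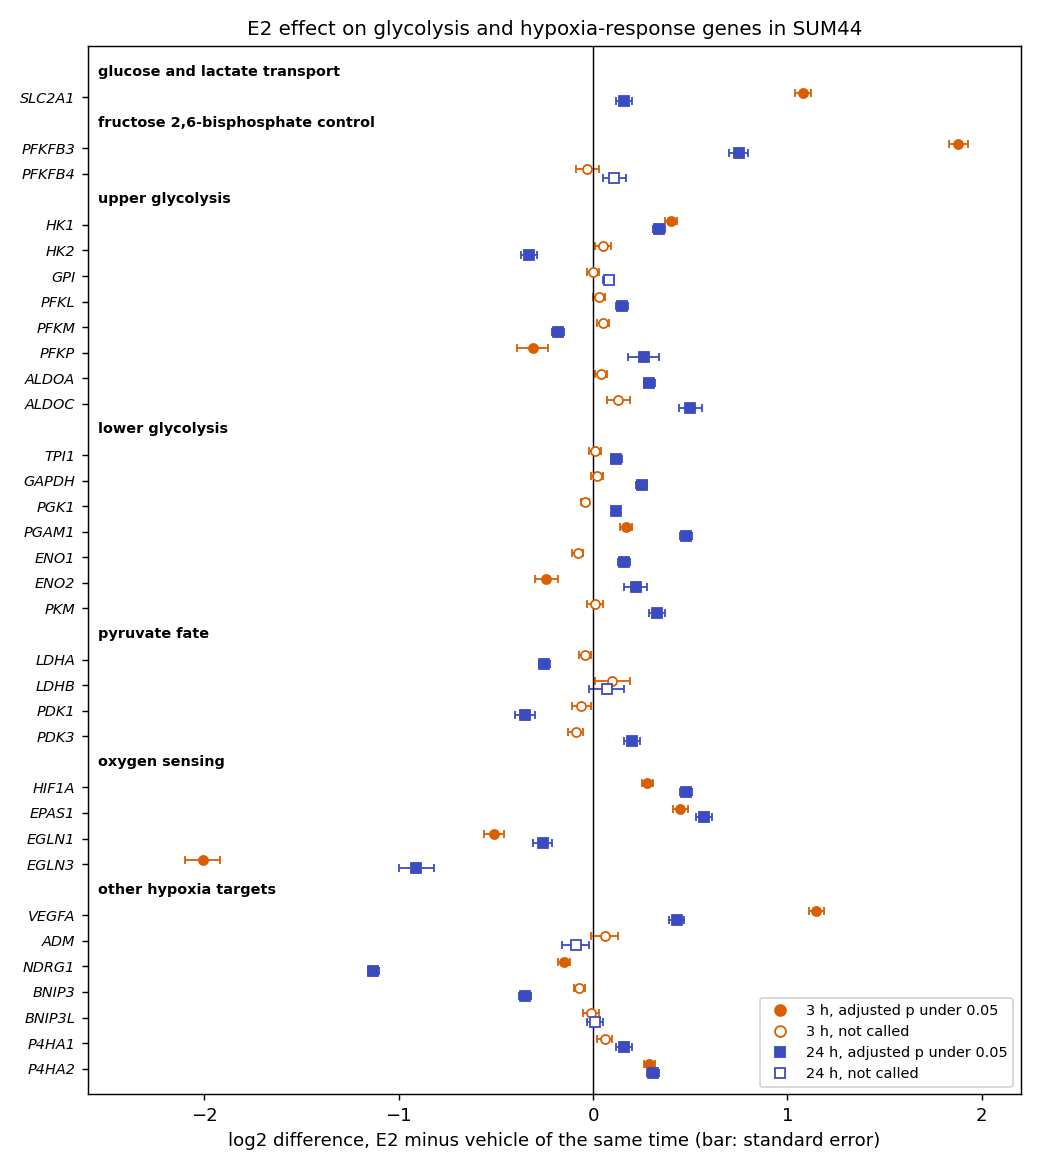
Log2 difference between E2 and vehicle of the same time for 33 genes grouped by role, with bars for the standard error; filled symbols were called. At 3 h few genes stand far from 0, led by PFKFB3 (1.88) and EGLN3 (-2.01), while at 24 h the lower glycolysis genes all lie right of 0.

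**Figure D2:**
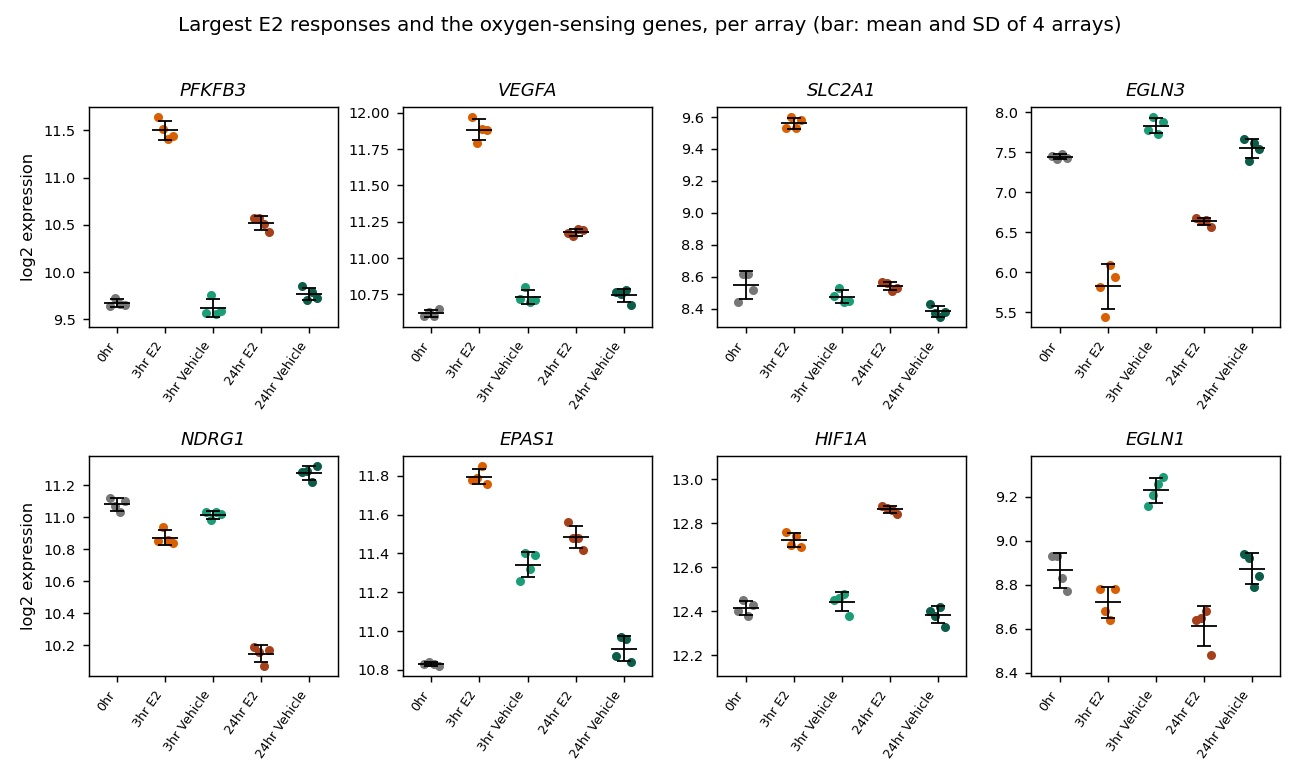
Log2 expression per array in the 5 groups for the 5 genes with at least a 1.5-fold E2 change at either time and for EPAS1, HIF1A and EGLN1, with mean and SD of 4 arrays; each panel has its own scale. The 4 arrays of PFKFB3 at 3 h with E2 sit between 11.41 and 11.64, above all others, and those of EGLN3 at 3 h with E2 between 5.44 and 6.09, below all others.

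After 24 h of E2, enzymes of glycolysis were broadly and modestly higher than with vehicle, while LDHA, PDK1, HK2, NDRG1, BNIP3 and EGLN3 were among those lower. HIF targets moved both ways: of the 7 measured genes listed as other hypoxia targets, 3 rose (VEGFA, P4HA2 and P4HA1) and 2 fell (NDRG1 and BNIP3). Of the 33 genes 20 were higher (60.6%, with 21.5% of all genes called higher) and 8 were lower (24.2%, with 24.2% of all genes called lower). Among the 21 of them in the brightest 25% of genes, 14 were higher (66.7%), against 28.9% of the 2991 genes in that range, and 5 were lower (23.8%), against 39.5%. The E2 arrays lay above all vehicle arrays for 20 of the 33 (18.8% of all genes) and below them for 8 (22.5%). The median difference was 0.16, against 0.02 over all genes. Sizes were small: at least a 1.5-fold change was called higher for PFKFB3 alone (3.02% of all genes) and lower for EGLN3 and NDRG1 (3.33% of all genes).

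All 7 lower glycolytic enzymes were higher with E2 than with vehicle at 24 h, by 0.12 to 0.48 with a median of 0.22. PGAM1 read 11.67, 11.66, 11.64 and 11.67 with 24 h E2, against 11.13, 11.19, 11.24 and 11.14 with 24 h vehicle, 1.40-fold higher (0.48 ± 0.03, limma adjusted p = 6.5e-10). GAPDH, the triose phosphate dehydrogenase, read 13.55, 13.51, 13.51 and 13.53 with E2, against 13.22, 13.24, 13.32 and 13.31 with vehicle (0.25 ± 0.03, limma adjusted p = 1.4e-07). In both genes the groups were apart. PKM, pyruvate kinase, was 1.26-fold higher (0.33 ± 0.04, adjusted p = 4.2e-06), but its second probe set gave 0.12 (adjusted p = 0.19). ENO2, ENO1, TPI1 and PGK1 were higher by 0.22, 0.16, 0.12 and 0.12. All 3 probe sets of GAPDH and of TPI1, 3 of 4 of PGK1 and 2 of 3 of ENO1 were called higher. PKM, ENO1 and GAPDH were themselves called lower in 24 h vehicle than at 0 h (-0.28, -0.20 and -0.09). ENO1 averaged 11.84 at 0 h, 11.64 with 24 h vehicle and 11.80 with 24 h E2, and PKM 11.31, 11.03 and 11.37. TPI1 averaged 12.35, 12.27 and 12.39 in the same order. The 24 h E2 arrays lay above all 0 h arrays for GAPDH, PGK1, PGAM1 and ENO2, and overlapped them for ENO1, PKM and TPI1.

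Of the 8 upper enzymes 5 were higher and 2 lower with E2 than with vehicle at 24 h, where 21.5% of all genes were called higher and 24.2% lower. ALDOC, the brain-type aldolase, rose 1.42-fold (0.50 ± 0.06, limma adjusted p = 4.4e-07), and the main aldolase ALDOA rose 1.22-fold (0.29 ± 0.03, adjusted p = 1.3e-08) on both of its 2 probe sets. HK1 stayed 1.26-fold higher (0.34 ± 0.03), and PFKP and PFKL, phosphofructokinase isoforms, were higher by 0.26 ± 0.08 (adjusted p = 0.012) and 0.15 ± 0.03 (adjusted p = 0.001). The 24 h E2 arrays of PFKP (7.81 to 7.93) lay within its 0 h range (7.61 to 7.94). Those of PFKL (9.10 to 9.16) overlapped its 0 h arrays (9.03 to 9.11). The PFKL call was lost with the mean of its probe sets (0.07, adjusted p = 0.059), and its second probe set gave -0.01. Lower were HK2 (-0.33 ± 0.04, adjusted p = 2.5e-06, on both of 2 probe sets) and the muscle phosphofructokinase PFKM (-0.18 ± 0.03, adjusted p = 4.7e-05). GPI, the isomerase, was not called (0.08 ± 0.03, adjusted p = 0.066), and was called at 0.10 without 24 h vehicle array C (adjusted p = 0.04) or 24 h E2 array C (adjusted p = 0.036).

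The genes that decide what becomes of pyruvate split. LDHA, which turns pyruvate into lactate, read 13.55, 13.56, 13.46 and 13.52 with 24 h E2, against 13.75, 13.80, 13.79 and 13.73 with 24 h vehicle. All E2 arrays were lower, by 0.25 ± 0.03 (limma adjusted p = 1.6e-07). PDK1, a kinase that inhibits pyruvate dehydrogenase, fell 1.27-fold (-0.35 ± 0.05, adjusted p = 2.4e-05). Its relative PDK3 rose (0.20 ± 0.04, adjusted p = 9e-04), with 0.11 (adjusted p = 0.16) on its second probe set. LDHB was dim in every group and was not called.

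**Figure D3:**
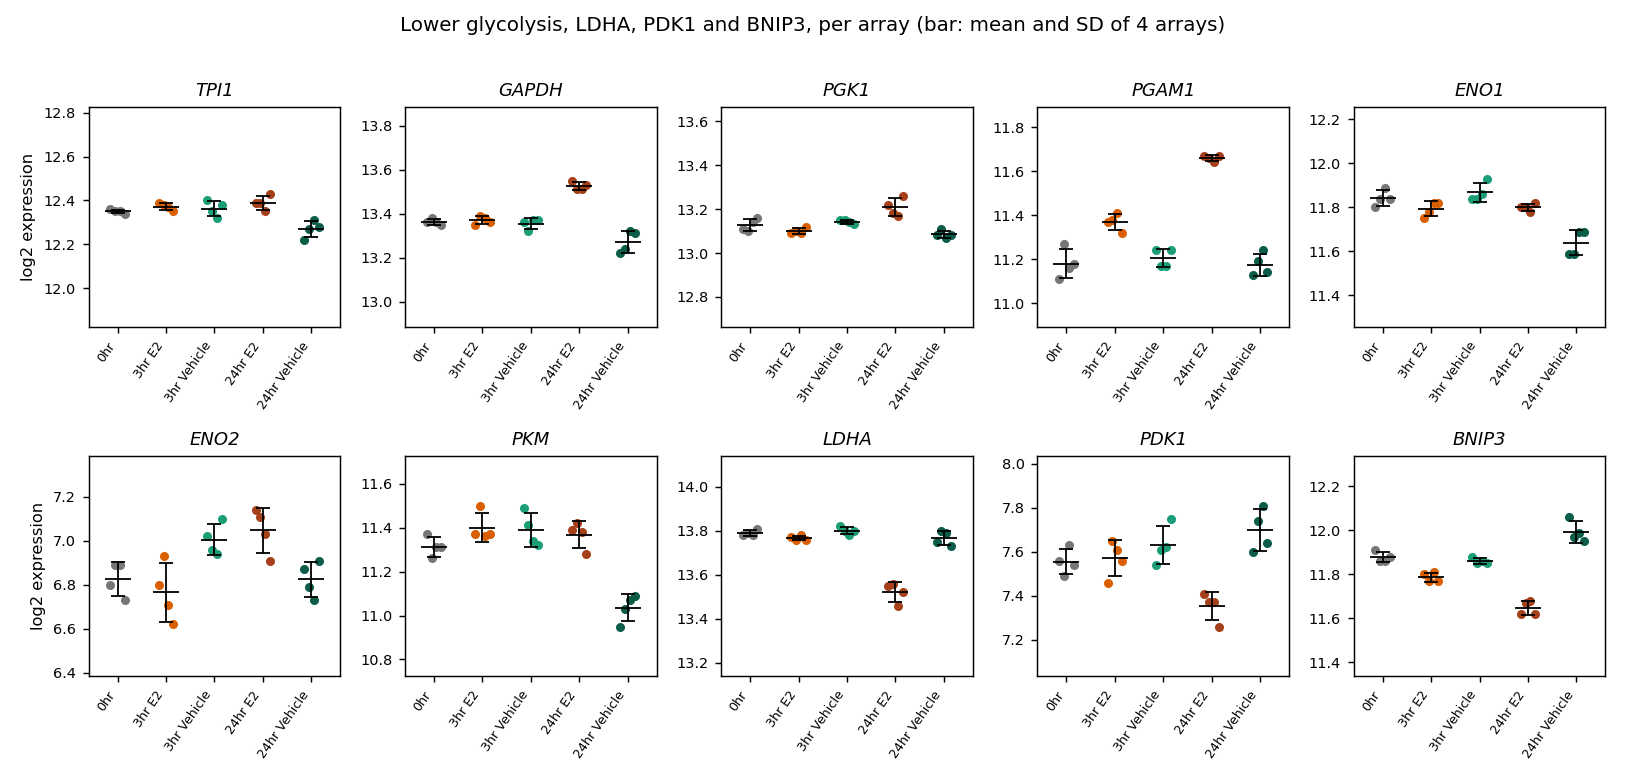
Log2 expression per array in the 5 groups for the 7 lower glycolysis genes and for LDHA, PDK1 and BNIP3, with mean and SD of 4 arrays; each panel has its own scale. At 24 h the E2 arrays of PGAM1 (11.64 to 11.67) lie above the vehicle arrays, and those of LDHA (13.46 to 13.56) below them.

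PFKFB3, VEGFA and SLC2A1 were still higher than with vehicle at 24 h, by less than at 3 h. PFKFB3 read 10.57, 10.57, 10.51 and 10.42 with 24 h E2, against 9.85, 9.71, 9.79 and 9.73 with 24 h vehicle, 1.68-fold higher (0.75 ± 0.05, limma adjusted p = 5.9e-10). VEGFA was 1.35-fold higher (0.43 ± 0.04, adjusted p = 4.6e-09) and SLC2A1 was higher by only 0.16 ± 0.04 (adjusted p = 0.0012), with 1 of its 2 probe sets called. The 24 h E2 arrays of SLC2A1 (8.51 to 8.57) lay within its 0 h range (8.44 to 8.62). Its 24 h vehicle level was called lower than 0 h (-0.17 ± 0.04, limma adjusted p = 0.004). PFKFB4 was not called (0.11 ± 0.06, adjusted p = 0.12), and was called at 0.15 (adjusted p = 0.032) without 24 h E2 array A.

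At 24 h EPAS1 stood 1.49-fold higher (0.57 ± 0.04, limma adjusted p = 2.5e-10) and HIF1A 1.40-fold higher (0.48 ± 0.03, adjusted p = 3.5e-11), with every E2 array above every vehicle array in both. EGLN1 was lower by 0.26 ± 0.05 (adjusted p = 0.00029). EGLN3 read 6.68, 6.64, 6.65 and 6.57 with 24 h E2, against 7.66, 7.39, 7.61 and 7.54 with 24 h vehicle. The groups did not overlap and the fall was 1.88-fold (-0.91 ± 0.09, adjusted p = 1.3e-07).

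NDRG1 showed the largest fall at 24 h. It read 10.19, 10.16, 10.07 and 10.17 with E2, against 11.28, 11.29, 11.22 and 11.32 with vehicle, or 2.19-fold lower (-1.13 ± 0.03, limma adjusted p = 1e-15), with wide separation. BNIP3 fell 1.27-fold (-0.35 ± 0.03, adjusted p = 2.4e-09) on both of its 2 probe sets. P4HA2 and P4HA1, the collagen prolyl hydroxylase subunits, were higher than with vehicle by 0.31 ± 0.03 (adjusted p = 7.5e-08) and 0.16 ± 0.04 (adjusted p = 0.0018). Both stand against a lowered vehicle level. P4HA2 averaged 11.17 at 0 h, 10.87 with 24 h vehicle and 11.18 with 24 h E2, and P4HA1 11.62, 11.45 and 11.61. ADM and BNIP3L were not called.

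Stromal and basal markers and RNA-end signals moved beside these groups. At 24 h 4 of 10 stromal markers were called higher and 1 lower, where 21.5% of all genes were called higher and 24.2% lower. Of these 10 markers 6 were dim. Their summed linear signal was 896 to 956 with E2, against 820 to 850 with vehicle, without overlap. Of the 6 measured basal markers, all dim, 2 were called higher at 24 h and 0 lower. Basal sums were 278 to 316 with 24 h E2, against 262 to 276 with 24 h vehicle, also without overlap. Immune or endothelial sums overlapped at 24 h. Luminal sums were 83900 to 85900 with 24 h E2, against 80000 to 82600 with 24 h vehicle, and 73000 to 74600 with 3 h E2, against 81800 to 82300 with 3 h vehicle. The log2 signal at the 3′ end minus the 5′ end of GAPDH was -0.138 ± 0.0107 with 3 h E2 and -0.116 ± 0.00851 with 3 h vehicle, and -0.148 ± 0.0128 with 24 h E2 and -0.117 ± 0.0318 with 24 h vehicle (SD, n = 4 each). For ACTB it was 0.385 ± 0.0324 with 3 h E2 and 0.315 ± 0.0271 with 3 h vehicle, while 24 h E2 gave 0.384 ± 0.0142 and 24 h vehicle 0.397 ± 0.0316 (SD, n = 4 each). At 3 h the E2 and vehicle arrays did not overlap in either of these end signals, and at 24 h they overlapped in both. Their part in the changes of the genes described was not tested.

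The difference between the 24 h and 3 h E2 effects was tested in the same fit. It was positive for 14 of the 33 genes (42.4%, with 16.5% of all genes called so) and negative for 9 (27.3%, with 17.8% of all genes). In the brightest 25% of genes it was positive for 8 of 21 (24.1% of the genes in that range) and negative for 7 (30.3%). At least a 1.5-fold shift was called positive for EGLN3 (1.10 ± 0.13, 2.93% of all genes) and negative for PFKFB3 (-1.13 ± 0.08), NDRG1 (-0.98 ± 0.05), SLC2A1 (-0.92 ± 0.05) and VEGFA (-0.72 ± 0.05), with 3.49% of all genes negative to that degree. The size for EGLN3 is uncertain, since its 3 h E2 arrays lay in the dim range, where a fall is understated. For PFKFB3, VEGFA and SLC2A1 the rise had shrunk by 24 h, for EGLN3 the fall had shrunk, and for NDRG1 the fall had grown. The E2 effect on LDHA, HK2, PDK1, PFKM and BNIP3 was more negative at 24 h, with limma differences of -0.21, -0.38, -0.29, -0.22 and -0.28. The difference was positive for all 7 lower glycolysis genes, from 0.11 for TPI1 to 0.46 for ENO2. For ENO1, PKM and TPI1 the mean with E2 was 11.79, 11.40 and 12.37 at 3 h and 11.80, 11.37 and 12.39 at 24 h. Their vehicle means were lower at 24 h, at 11.64, 11.03 and 12.27, against 11.87, 11.39 and 12.36 at 3 h. For GAPDH, PGK1, PGAM1 and ENO2 the mean with E2 was itself higher at 24 h than at 3 h. The TPI1 difference (limma adjusted p = 0.028) lost its call without 3 h vehicle array A (0.06) or D (0.055), 24 h vehicle array A (0.061) or 24 h E2 array D (0.061). That of HK2 was -0.01 on its second probe set (adjusted p = 0.96), and that of PKM 0.01 (adjusted p = 0.94). SLC2A1 and TPI1 also lost the call on their second probe sets (-0.41, adjusted p = 0.083, and 0.09, adjusted p = 0.11). PFKL (0.12, adjusted p = 0.062) gained a call without 3 h E2 array B, 3 h vehicle array B, 24 h E2 array A or 24 h vehicle array D (adjusted p 0.026 to 0.049), and EPAS1 (0.12, adjusted p = 0.1) without 3 h vehicle array A (0.15, adjusted p = 0.038). The 2 E2 comparisons use separate vehicle arrays, so this difference compares 4 groups.

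Some of these genes also differed between vehicle and 0 h. At 3 h vehicle was called higher than 0 h for 6 of the 33 genes (9.95% of all genes), PFKP, EPAS1, EGLN3, EGLN1, HK2 and VEGFA, and lower for 0 (10.1% of all genes). By limma 7 were higher and 1 was lower at an unadjusted p under 0.05. In the brightest 25% of genes 3 of 21 were called higher (13.8% of the genes in that range) and 0 lower (15.6%). The vehicle arrays lay above all 0 h arrays for 8 of the 33 (12.1% of all genes) and below them for 2 (13.3%). PFKP read 8.24, 8.37, 8.58 and 8.62 with 3 h vehicle, against 7.61, 7.82, 7.94 and 7.75 at 0 h, 1.60-fold higher (0.67 ± 0.08, limma adjusted p = 4e-06), and was the only gene of the 33 past 1.5-fold (0.811% of all genes were higher to that degree and 0.209% lower). With 3 h E2 its arrays read 8.02, 8.09, 8.28 and 8.20, above every 0 h array and overlapping the lower vehicle arrays. The fall of PFKP at 3 h therefore stands against a raised vehicle level.

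EPAS1 was 1.42-fold higher with 3 h vehicle than at 0 h (0.51 ± 0.04, limma adjusted p = 1.6e-08), and its 3 h E2 arrays lay above every 3 h vehicle and 0 h array. EGLN1 rose by 0.36 ± 0.05 and EGLN3 by 0.39 ± 0.09 with 3 h vehicle (limma adjusted p = 3.1e-05 and 0.0054). The 3 h E2 arrays of EGLN3 lay below every 0 h array, which read 7.45, 7.41, 7.48 and 7.43, while those of EGLN1 overlapped the 0 h arrays at 8.93, 8.93, 8.83 and 8.77. HK2 rose by 0.28 ± 0.04 (adjusted p = 8.2e-05) on its brighter probe set, and its second probe set gave 0.05 (adjusted p = 0.74). VEGFA differed by 0.11 ± 0.04 (adjusted p = 0.037), a call lost without any of 0 h arrays A, B or C or vehicle arrays A or B (adjusted p from 0.058 to 0.14), and with each array centred on its median (adjusted p = 0.069). SLC2A1 was called lower only without 0 h array A (-0.11, adjusted p = 0.03).

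At 24 h vehicle was called lower than 0 h for 7 of the 33 genes (4.37% of all genes) and higher for 3 (7.55% of all genes), with a median of -0.03. A change of 1.5-fold was called for none of them, against 0.242% of all genes higher and 0.0669% lower to that degree. In the brightest 25% of genes 6 of 21 were lower (8.16% of the genes in that range) and 3 higher (12.6%). The vehicle arrays lay below all 0 h arrays for 10 of the 33 (8.22% of all genes) and above them for 4 (11.5%). With each array centred on its median, 10 were lower and 2 higher, and over all genes 712 were lower and 806 higher, against 523 lower and 903 higher without centring. Lower were P4HA2 (-0.30 ± 0.03), PKM (-0.28 ± 0.04), ENO1 (-0.20 ± 0.03), P4HA1 (-0.17 ± 0.04), SLC2A1 (-0.17 ± 0.04), GPI (-0.11 ± 0.03) and GAPDH (-0.09 ± 0.03), and higher were NDRG1 (0.20 ± 0.03), VEGFA (0.12 ± 0.04) and BNIP3 (0.12 ± 0.03). The call of PKM was lost on its second probe set, which gave 0.14 (adjusted p = 0.23), and with the mean of its probe sets (-0.07, adjusted p = 0.28). SLC2A1 was not called with the mean of its probe sets (-0.16, adjusted p = 0.11), nor VEGFA (0.05, adjusted p = 0.3). The GPI call was lost on leaving out any array compared other than vehicle C (adjusted p 0.051 to 0.14). The GAPDH call was lost on leaving out any other than vehicle C and D (0.055 to 0.11), and the VEGFA call any other than vehicle D and 0 h D (0.052 to 0.079). TPI1 (-0.08, adjusted p = 0.06) gained a call without vehicle C (-0.09, adjusted p = 0.042) and also with each array centred on its median (adjusted p = 0.031).

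The log2 signal at the 3′ end minus the 5′ end of ACTB was 0.315 ± 0.0271 in 3 h vehicle and 0.397 ± 0.0316 in 24 h vehicle, against 0.466 ± 0.0101 at 0 h (SD, n = 4 each), and neither vehicle group overlapped 0 h. For GAPDH it was -0.116 ± 0.00851 in 3 h vehicle and -0.117 ± 0.0318 in 24 h vehicle, against -0.124 ± 0.0137 at 0 h (SD, n = 4 each), with overlap. Their part in the differences between vehicle and 0 h was not tested.

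Set against 0 h rather than vehicle, the 24 h E2 arrays lay above all 0 h arrays for 12 of the 33 genes (18.7% of all genes) and below for 8 (22.1% of all genes). Above were VEGFA, PFKFB3, HK1, ALDOA, ALDOC, GAPDH, PGK1, PGAM1, ENO2, PDK3, HIF1A and EPAS1, and below were HK2, PFKM, LDHA, PDK1, EGLN1, EGLN3, NDRG1 and BNIP3. Of the 7 genes called lower in 24 h vehicle than at 0 h, GAPDH is among those above, and SLC2A1, GPI, ENO1, PKM, P4HA1 and P4HA2 are in neither list. The 3 h E2 arrays lay above all 0 h arrays for 11 genes (15.6% of all genes) and below for 4 (19.5%), PFKFB4, EGLN3, NDRG1 and BNIP3. These counts are a description and have no test.

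**Figure D4:**
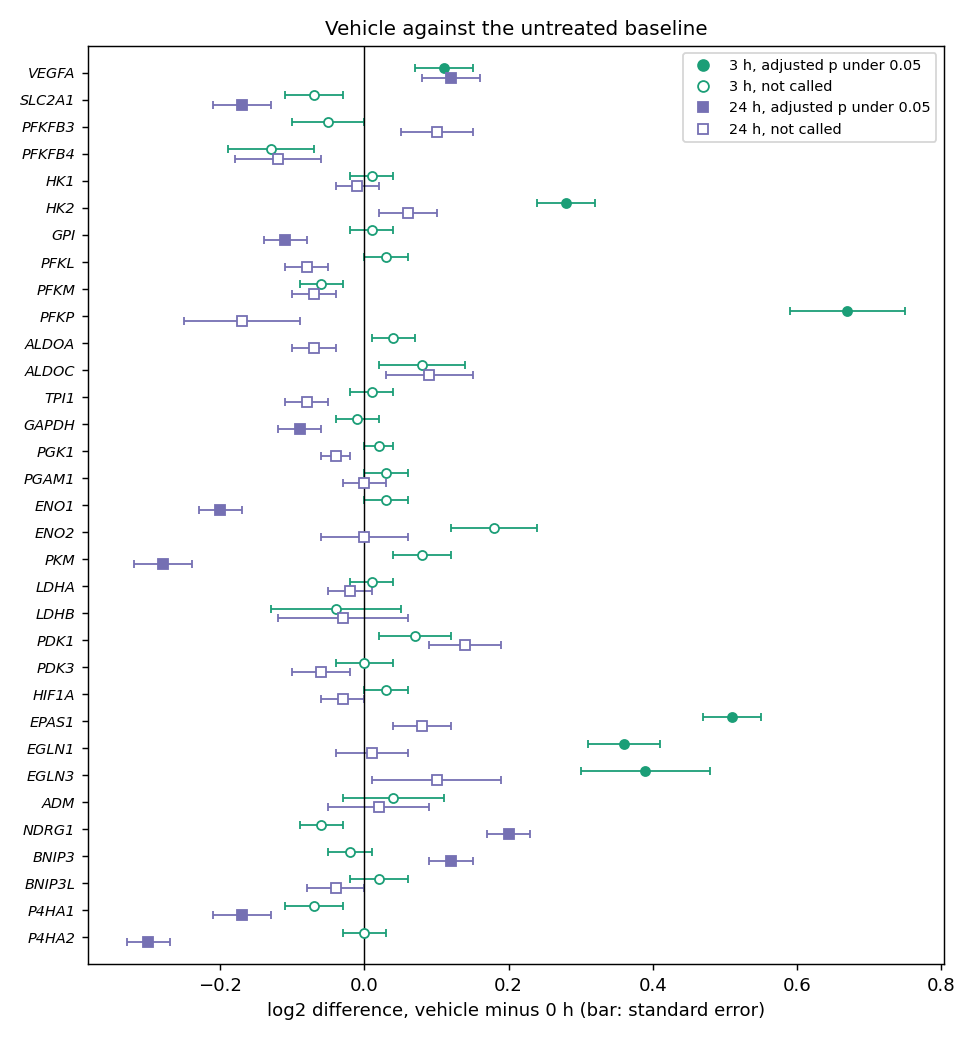
Log2 difference between vehicle and 0 h for the 33 genes at 3 h and 24 h, with bars for the standard error; filled symbols were called. PFKP (0.67) and EPAS1 (0.51) stand furthest to the right at 3 h, and P4HA2 (-0.30) furthest to the left at 24 h.

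Genes beyond the 33 in the same pathways moved in both directions. Of 30 measured other glycolysis and pyruvate genes, 6 rose and 2 fell at 3 h, where 13.5% of all genes were called higher and 17.6% lower. At 24 h 9 rose and 7 fell, where 21.5% of all genes were called higher and 24.2% lower. At 3 h PDP1, a pyruvate dehydrogenase phosphatase, fell most (-1.24 ± 0.08, limma adjusted p = 1.6e-10), and PCK2, the mitochondrial PEP carboxykinase, rose (0.67 ± 0.04, adjusted p = 2e-10). MPC1, a pyruvate carrier subunit, and PDHB, a pyruvate dehydrogenase subunit, rose by 0.40 and 0.29. At 24 h PCK2 was up by 0.92 ± 0.04 (adjusted p = 1.4e-12), PYGL, glycogen phosphorylase, was down by 0.76 ± 0.04 (adjusted p = 4e-12), PGM1 was down by 0.53 and the glycogen branching enzyme gene GBE1 was up by 0.49.

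Of 38 measured other hypoxia and HIF pathway genes, 8 rose and 11 fell at 3 h (13.5% of all genes called higher and 17.6% lower), and 9 rose and 17 fell at 24 h (21.5% of all genes called higher and 24.2% lower). At 3 h KDM4B, a histone demethylase, rose by 1.30 ± 0.03 (limma adjusted p = 1.9e-16) and CITED2, which competes with HIF for its coactivator, fell by 1.93 ± 0.05 (adjusted p = 4.4e-16), while INSIG2 fell by 1.22 and STC2 rose by 1.03. At 24 h INSIG2 was lower by 1.21 ± 0.04, TMEM45A by 1.97 ± 0.08, STC2 by 0.64 and TXNIP by 0.44 (limma adjusted p from 9.6e-16 to 3.9e-11). STC2 thus stood above vehicle at 3 h and below it at 24 h.

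For the next lists the shares of all genes called were 13.5% higher and 17.6% lower at 3 h, and 21.5% higher and 24.2% lower at 24 h. Of 7 measured pentose phosphate genes, 2 fell at 3 h (H6PD -0.33, RPIA -0.36) and none rose by limma, with 1 at an unadjusted p under 0.05. At 24 h 1 rose (PGD 0.19) and 2 fell (TKT -0.59, PGLS -0.15). TKT, transketolase, was also lower in 24 h vehicle than at 0 h (-0.35). Of 12 measured tricarboxylic acid cycle genes 3 rose at 3 h, IDH3A (0.65 ± 0.03), SDHA (0.29) and SUCLA2 (0.22), and 7 rose at 24 h, led by OGDH (0.38), SDHA (0.26), IDH3A (0.25) and SDHC (0.12). By limma 0 of the 12 fell at either time, with 1 lower at 3 h and 0 at 24 h at an unadjusted p under 0.05.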

How the data were processed

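Total RNA of SUM44 cells was measured on 20 Affymetrix human expression arrays, and no reads or detection calls were used. The authors deposited log2 expression per probe set, made with RMA in affy, per the submitters' processing notes, whose versions and settings are not given in the sources used here. RMA makes the arrays' distributions alike, so a change in total RNA per cell would not show, and precision is limited by the number of arrays.

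Of 22277 probe sets, 62 controls were left out; 19064 had 1 symbol, 1043 several and 2108 none. The brightest probe set stood for each of 11963 genes, with no filter on dim values. The fit used limma 3.58.1 under R 4.3.3 (two-sided, a mean per group over all 20 arrays, no block), with Benjamini-Hochberg adjustment over all genes and a threshold of 0.05. The fit was tested on simulated data. The rule for naming was that genes past 1.5-fold are given by array, the others by difference or range, and up to 4 genes of each other list by smallest p. Members and lists were chosen with earlier results of these data known. Promoter windows are from RefSeq (GRCh38.p14). Alternatives covered array letters as a block, other scaling, filters and probe sets, and each array left out.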

Additional observations from a re-analysis of the deposited data

Results flagged for a closer look

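Of 165 groups of 4 arrays, 3 had 1 array far from the other 3. Chance alone gives about 1 such group in 20, so 3 of 165 is below that rate. GPI read 10.85 on 24 h E2 array C, with its nearest neighbour at 10.92. PKM read 11.50 on 3 h E2 array B, with the nearest at 11.37. ADM read 6.35 on 0 h array C, with the nearest at 6.58.

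The E2 effect differed between 24 h and 3 h for 23 of the 33 genes by the limma test of that difference, given here as the 24 h effect minus the 3 h effect on the log2 scale. Of all genes, 16.5% were called higher and 17.8% lower by the same test. It was lower at 24 h for PFKFB3 (-1.13), NDRG1 (-0.98), SLC2A1 (-0.92), VEGFA (-0.72), HK2 (-0.38), PDK1 (-0.29), BNIP3 (-0.28), PFKM (-0.22) and LDHA (-0.21). It was higher at 24 h for EGLN3 (1.10), PFKP (0.57), ENO2 (0.46), ALDOC (0.38), PGAM1 (0.32), PKM (0.32), PDK3 (0.29), ALDOA (0.25), EGLN1 (0.25), ENO1 (0.24), GAPDH (0.23), HIF1A (0.20), PGK1 (0.16) and TPI1 (0.11). The 3 h E2 level of EGLN3 was dim, which leaves the size of its difference uncertain. The HK2 and PKM differences were near 0 on their second probe sets. For PFKP and EGLN1 the mean with E2 was lower at 24 h than at 3 h (7.87 against 8.15, and 8.61 against 8.72). Their vehicle means dropped further, from 8.45 to 7.61 and from 9.23 to 8.87, and 3 h vehicle was called higher than 0 h for both. For ENO1, PKM and TPI1 the means with E2 stayed close, and the vehicle means were lower at 24 h.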

How the results depend on the processing

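Over single genes and comparisons, 2869 of 2974 repeats under another setting kept direction and side of the threshold, 53 lost the call, 49 gained one and 3 turned. The 3 came from the second probe set: HK2 at 3 h (-0.24), PFKL at 24 h (-0.01) and PKM in 24 h vehicle against 0 h (0.14). With at least a 1.5-fold change required, 3 of the 33 genes were higher and 1 lower at 3 h, 1 and 2 at 24 h, 1 and 4 for the difference of the effects, 1 and 0 in 3 h vehicle against 0 h, and 0 and 0 in 24 h vehicle against 0 h. In the same order, the shares of all genes higher and lower were 2.73% and 2.58%, 3.02% and 3.33%, and 2.93% and 3.49%. For the vehicle comparisons they were 0.811% and 0.209% at 3 h, and 0.242% and 0.0669% at 24 h. Centring each array on its median gave a median of 0.18 for 24 h E2 and -0.05 for 24 h vehicle, and removing each array's trend with level, chosen after seeing the data, gave 0.18 for 24 h E2. Leaving out 1 array gave medians of 0.14 to 0.17 for 24 h E2, 0.01 to 0.03 for 3 h vehicle and -0.05 to -0.02 for 24 h vehicle, and 0 to 1 genes lower in 3 h vehicle. No called E2 effect of the 33 genes at 3 h or 24 h lost its call when 1 array was left out. The array letters are shared by the groups but did not pair the arrays: same-letter correlations of deviations ran from -0.245 to 0.0312, and 0 of 4 arrays correlated best with their own letter in any comparison. With the letters as a block, 8 genes were higher and 6 lower at 3 h, 20 and 8 at 24 h, 14 and 9 for the difference, 5 and 0 in 3 h vehicle, and 3 and 5 in 24 h vehicle. Over all 11963 genes the block gave 1605 higher and 2060 lower at 3 h, 2592 and 2887 at 24 h, and 1967 and 2111 for the difference. For 3 h vehicle it gave 1155 and 1177, and for 24 h vehicle 896 and 514. With the block ENO1 gained a call at 3 h (-0.08, adjusted p = 0.045). With 4 arrays per group and signals near background for LDHB and, with 3 h E2, EGLN3, small changes of such genes cannot be resolved. The causes were not tested.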
